A study of Mus musculus with 6 samples.

Results

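The mouse genes named Eif and Eef encode the factors that start and extend protein synthesis, together with enzymes and partners that act on them. The set taken here holds every symbol of the deposited expression table that begins with Eif or Eef followed by a digit. The 13 such symbols marked as pseudogenes (-ps) and the Y-linked Eif2s3y were left out. That gave 71 of 55367 symbols, 57 of them Eif genes, called initiation genes below, and 14 Eef genes, called elongation genes. Within this rule the symbols alone chose the members, although earlier results of these data were known when the set was chosen. Of these, 46 (39 Eif and 7 Eef) reached FPKM 1 in 3 libraries or more and were tested. FPKM divides fragment counts by the length of the transcript and by the size of the library, so levels of different genes can be set side by side per length.

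The libraries came from TRAP2;Ai9 mice, in which an inducible Cre recombinase under control of the activity gene Fos switches on the red reporter tdTomato from the Rosa26 locus. Cells that were active around the labelling time therefore stay marked. All mice of both groups belonged to the LH+ class, that is, they had gone through learned helplessness, a stress model in which animals stop trying to escape. The NR group (3 libraries) had no running, and the Run group (3 libraries) had 28 days of voluntary running. Marked cells of the hippocampal dentate gyrus were sorted and amplified with Smart-seq2, a full-length cDNA method, and all 6 libraries carry the label batch 1. The labels give no age and no number of mice or cells per library, so p-values measure the spread between these libraries, part of which may be technical. The comparison asks how running changed the RNA of these cells.

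Translation starts when the small ribosomal subunit, loaded with initiator tRNA by eIF2 and held by eIF1, eIF1A and eIF3, is recruited to the capped mRNA by eIF4E, eIF4G and the helicase eIF4A and scans to the start codon. Elongation then repeats a cycle in which eEF1A brings each aminoacyl-tRNA, the eEF1B subunits reload it with GTP, and eEF2 moves the ribosome along. Neurons control both steps, through phosphorylation of eIF2, binding of eIF4E by 4E-BP proteins and phosphorylation of eEF2, and this control is known for its part in synaptic plasticity and memory in the hippocampus.

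Several of these factors come as pairs of paralogs or have near-identical copies in the genome. Reads of one can be credited to the other where both sequences match over the length of a read. The coding start of the abundant eEF1A gene and of its neuronal paralog is shown because the levels of the pair differed so widely in these cells. Coordinates are of GRCm38, sequences were read from GENCODE M21 transcripts, and capitals mark the bases that differ within a pair. Eef1a1 lies here at chr9:78480565-78480654 on the minus strand, and Eef1a2 at chr2:181155317-181155406, also on the minus strand.
Eef1a1: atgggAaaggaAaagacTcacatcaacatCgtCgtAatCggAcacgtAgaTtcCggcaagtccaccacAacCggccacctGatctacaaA
Eef1a2: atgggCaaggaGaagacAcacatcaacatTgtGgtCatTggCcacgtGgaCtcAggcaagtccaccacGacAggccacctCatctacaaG
The 90 bases differ at 15 places, and the longest stretch shared anywhere in the coding sequences is 23 bases, with 80.1% identity over 1386 aligned bases. The first 90 coding bases of Eif1 and Eif1b are shown for the same reason. They are spliced from chr11:100320130-100320724 and chr9:120492811-120494165, both on the plus strand, and differ at 13 places.
Eif1: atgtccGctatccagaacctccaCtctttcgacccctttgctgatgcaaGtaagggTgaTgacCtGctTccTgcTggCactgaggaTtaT
Eif1b: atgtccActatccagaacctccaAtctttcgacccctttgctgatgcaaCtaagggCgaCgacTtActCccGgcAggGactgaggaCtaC
The third set shows a copy that shares nearly every base with its parent. A window of 90 coding bases is given for the helicase gene Eif4a1 (spliced from chr11:69668692-69669105, minus strand), its paralog Eif4a2 (spliced from chr16:23110126-23110295, plus strand) and the pseudogene Eif4a-ps4 (chr1:60704418-60704507, plus strand). Capitals in the first pair mark the 15 differences between Eif4a1 and Eif4a2, and the capital in Eif4a-ps4 marks its single difference from Eif4a1.
Eif4a1: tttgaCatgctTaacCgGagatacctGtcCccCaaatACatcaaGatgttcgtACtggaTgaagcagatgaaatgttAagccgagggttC
Eif4a2: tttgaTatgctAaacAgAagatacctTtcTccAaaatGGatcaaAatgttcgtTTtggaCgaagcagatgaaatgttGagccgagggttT
Eif4a-ps4: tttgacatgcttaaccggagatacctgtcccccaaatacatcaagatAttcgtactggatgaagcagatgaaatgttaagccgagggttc
Over the whole coding sequence Eif4a1 and Eif4a-ps4 share 1217 of 1218 bases, whereas Eif4a1 and Eif4a2 share 78.2%.

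The libraries were alike in summed FPKM, from 473786 to 492021, and 5426 to 7355 symbols reached FPKM 1 in a library. The depth behind these values is unknown, and an FPKM of 0 may be a failed estimate, so such genes are said to be listed at 0. The neuronal label was only partly borne out by marker genes. The 6 pan-neuronal markers summed to 273 to 763 FPKM, but those of dentate granule neurons summed to 0.285, 183 and 29.1 FPKM without running and to 280, 108 and 39.7 with running (replicates 1 to 3 in order, here and below), with 0 of 6 reaching FPKM 1 in NR replicate 1. All 6 astrocyte markers exceeded FPKM 1 in every library and summed to 2362 to 5210, while the 5 oligodendrocyte markers summed to 145 to 1293, the 6 microglial markers to 55.0 to 776 and the 5 endothelial markers to 774 to 1982. In such material a lower level can come from fewer cells of a type or from less RNA per cell, and these cannot be told apart. The part that other cell types have in the factor levels was not tested.

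The factor genes split into a small group of very abundant mRNAs seen in every library and a large group seen in some libraries only. FPKM reached 1 in all 6 libraries for 19 of the 71 genes (14 Eif and 5 Eef), in some libraries for 45, and in none for 7. Of the 7, 5 were listed at 0 throughout. These were Eif4e1b, a germline form of the cap-binding protein, Eif4ebp3, the third eIF4E-binding protein, the methyltransferase genes Eef1akmt3 and Eef2kmt, and Eif2c5, which GENCODE annotates as a long non-coding RNA on the X chromosome. The other 2, Eif4a3l1 and Eif4a3l2, named for their likeness to Eif4a3, stayed between 0 and 0.555 FPKM. Together the members held 0.735% to 1.28% of a library's summed FPKM, and 36 to 49 of them reached FPKM 1 in a library.

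Coverage followed the level. Of the 12 members with a mean of at least 100 FPKM, 11 reached FPKM 1 in all 6 libraries (91.7%, against 89.8% of the 695 symbols at that level). Between 30 and 100 FPKM this held for 7 of 20 members (35%, against 32.9% of all symbols there), and between 1 and 10 FPKM for 0 of 19 (5.95% of all symbols). The factor genes were thus covered about as often as other symbols of their level, and most members below 100 FPKM fell under FPKM 1 in at least 1 library.

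**Figure D1:**
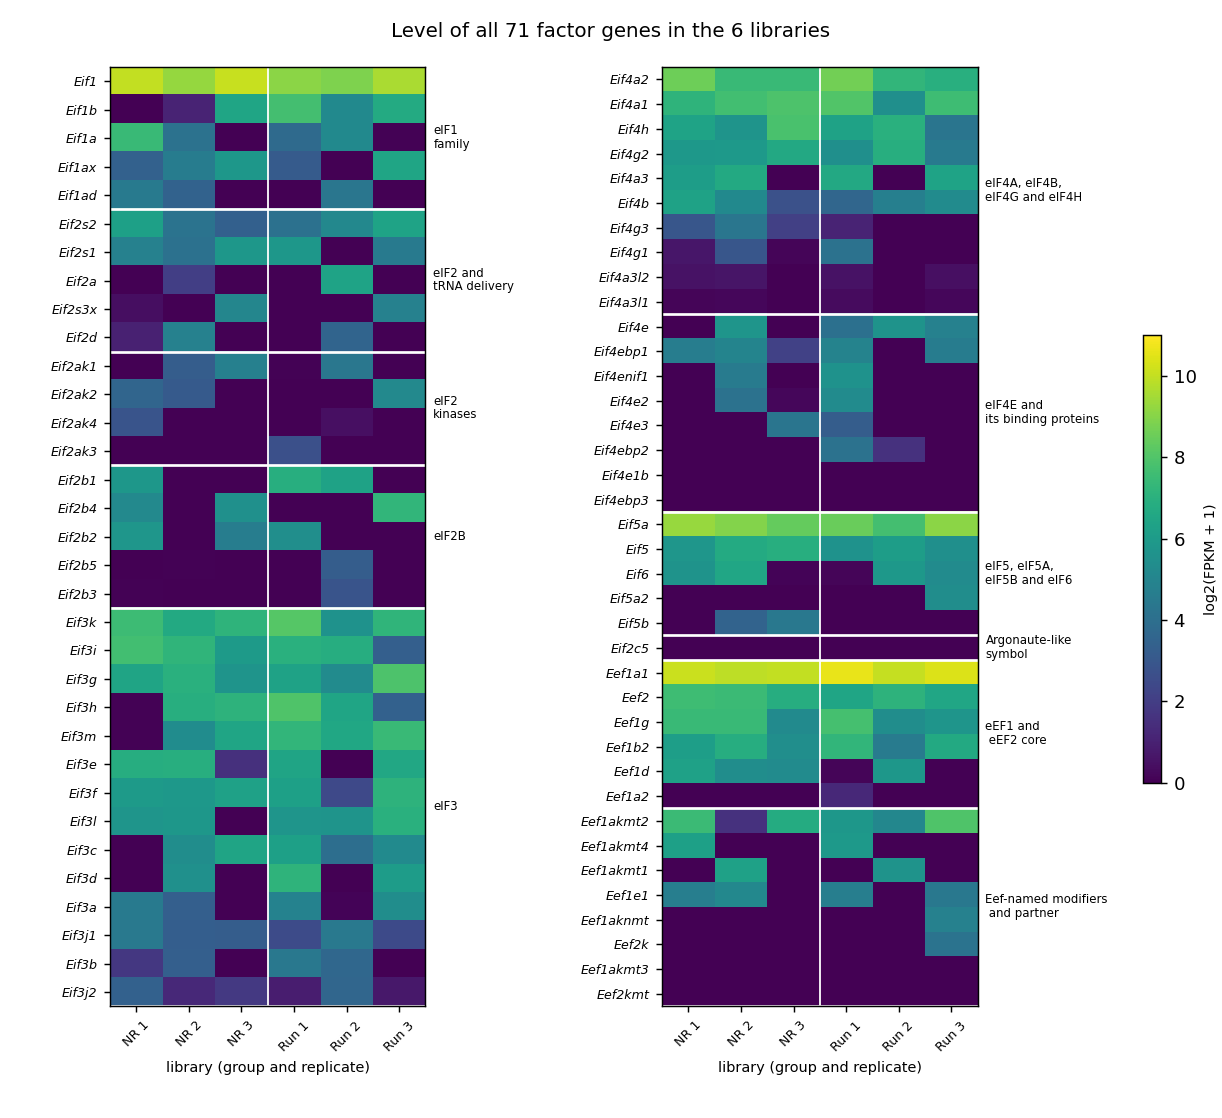
Level of each of the 71 genes (rows, grouped by the factor they encode) in each library (columns), as log2(FPKM + 1) in color. A bright row across all 6 columns, as for Eef1a1 and Eif1, is a gene seen at a high level in every library, while most rows alternate between bright and dark columns within a group.

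Elongation was dominated by one gene. Eef1a1 (chromosome 9, 78478449 to 78489151, minus strand), which encodes the tRNA carrier of elongation, had the 36th highest mean of all symbols. It had 1114, 963 and 1029 FPKM without running and 1610, 1046 and 1385 with running. Run replicates 1 and 3 were the highest, but Run replicate 2 lay within the NR range, so the groups overlapped. The means were 1035 ± 75.5 without running and 1347 ± 284 with running (SD, n = 3 each). Their log2 difference was 0.36 ± 0.24 (SE). By limma the adjusted p was 0.978. Differences here and below subtract NR from Run after taking log2(FPKM + 1), a scale that shrinks those of genes near 0.

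The neuronal paralog was listed at 0 in most of the same libraries. Eef1a2 (chromosome 2, 181147653 to 181157014), which encodes the eEF1A form known from mature neurons and muscle, was listed at 0 in all 3 NR libraries and in Run replicates 2 and 3, and had 1.42 FPKM in Run replicate 1. Its share of the summed Eef1a1 and Eef1a2 level was therefore 0% in 5 libraries and 0.0882% in 1. With 5 equal values the exact permutation test planned for this share can give no p but 1, so it says nothing here. The 2 sequences shown above differ often enough that no shared run exceeds 23 bases.

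Eef2, the translocase gene (chromosome 10, 81176631 to 81182498), was the second of the elongation core. It had 192, 181 and 114 FPKM without running and 87.1, 139 and 91.4 with running. Run replicates 1 and 3 lay below every NR library and Run replicate 2 lay between NR values. The log2 difference was -0.61 ± 0.51 (SE; limma adjusted p = 0.978). Eef1a1 exceeded Eef2 by 5.80, 5.33 and 9.03 times without running and by 18.5, 7.54 and 15.2 times with running, so the ratio overlapped through Run replicate 2 and NR replicate 3. Eef2k, the kinase that inhibits eEF2 by phosphorylation, was listed at 0 in all 3 NR libraries and in Run replicate 2, at 0.00795 FPKM in Run replicate 1, and had 17.5 FPKM in Run replicate 3. A single library thus carried nearly all of its signal, and it was not tested.

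The subunits of eEF1B, the exchange factor that reloads eEF1A with GTP, were uneven. Eef1g had 177, 174 and 37.2 FPKM without running and 218, 41.5 and 53.0 with running. Eef1b2 had 70.98, 114 and 41.7 without running and 149, 22.7 and 102 with running. For both genes high and low libraries occurred in each group, and their log2 differences were -0.42 ± 0.94 and 0.02 ± 0.89 (SE). Eef1d had 76.9, 40.7 and 38.1 FPKM without running and 0.103, 56.1 and 0.0190 with running. It was near 0 in Run replicates 1 and 3 and within the NR range in Run replicate 2, for a log2 difference of -3.65 ± 1.78 (SE; limma unadjusted p = 0.0790, adjusted p = 0.978). Eef1d met the filter through its NR libraries. The 3 subunits of one complex were thus not covered alike, since Run replicate 1 had the highest values of Eef1g and Eef1b2 and almost none of Eef1d.

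Of the 8 other Eef genes, which encode enzymes that modify the factors and a partner of tRNA synthetases, only Eef1akmt2, a lysine methyltransferase of eEF1A, reached FPKM 1 in all 6 libraries. It had 180.3, 1.93 and 109 FPKM without running and 55.6, 33.1 and 253 with running, a range of 131 times, and the groups overlapped between 33.1 and 180.3 FPKM. Its mean of 106 ± 95.8 FPKM (SD over 6 libraries) was near that of Eef1g, although 1 library was close to 1 FPKM. Of the remaining 7, 2 were the genes listed at 0 throughout and 5, Eef2k among them, reached FPKM 1 in 1 to 4 libraries.

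**Figure D2:**
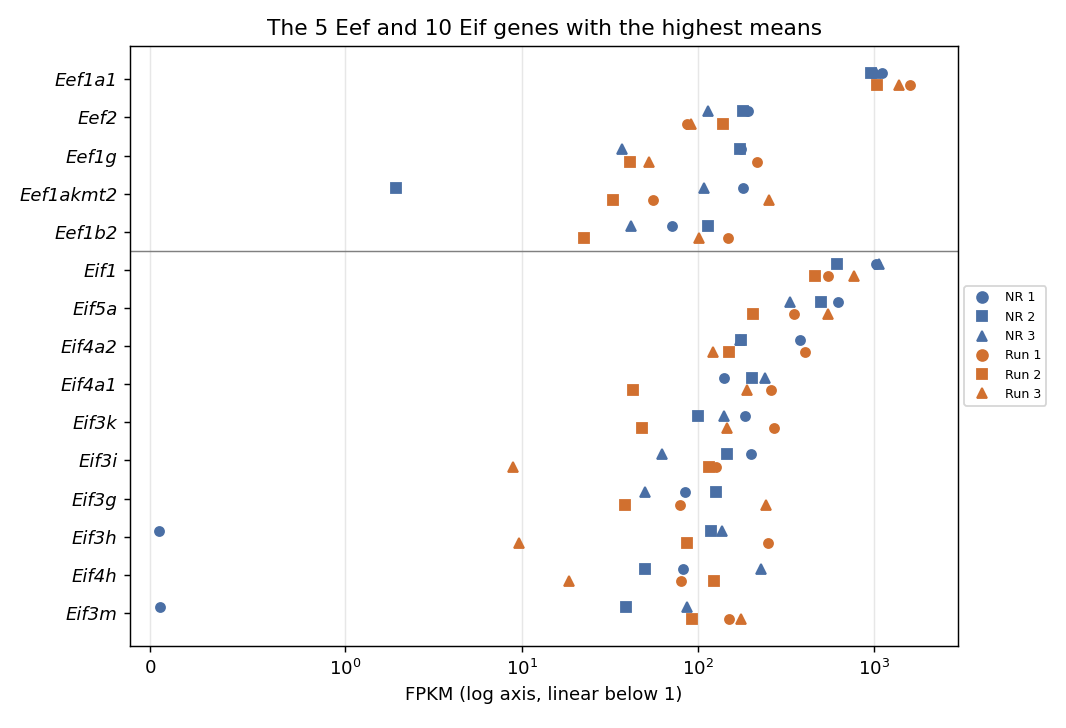
FPKM (log axis, linear below 1) of the 5 Eef and 10 Eif genes with the highest means, with 1 point for each library, NR above Run in each row. Eef1a1 and Eif1 stay within a narrow range in all 6 libraries, while Eif3h and Eif3m each have an NR replicate 1 point near 0.

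The small scanning factor was the most abundant initiation mRNA. Eif1 (chromosome 11, 100319885 to 100322096), whose product guards start codon choice, had 1022, 621 and 1064 FPKM without running and 551, 461 and 767 with running. Run replicates 1 and 2 lay below every NR library, and Run replicate 3 lay above NR replicate 2, so the groups overlapped. The means were 903 ± 245 and 593 ± 157 (SD, n = 3 each), with a log2 difference of -0.60 ± 0.34 (SE; limma unadjusted p = 0.122, adjusted p = 0.978). Its paralog Eif1b (chromosome 9, 120492232 to 120495330) was listed at 0 in NR replicate 1, had 1.16 and 87.8 FPKM in NR replicates 2 and 3, and 211, 36.6 and 105 with running. Both lowest values were NR libraries, and Run replicate 2 lay below NR replicate 3. Its log2 difference of 4.03 ± 1.82 (SE) was the highest among the tested members, with a limma unadjusted p of 0.0618 and an adjusted p of 0.978. Over the whole class of 5 eIF1 and eIF1A genes, 1 difference was positive and 4 were negative, with none past the threshold and a median of -0.83.

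The 3 subunits of eIF2, which carries the initiator tRNA, were not covered alike. Eif2s2 reached FPKM 1 in 6 libraries, Eif2s1 in 5 and Eif2s3x in 2. Eif2s2, the beta subunit, had 76.3, 17.1 and 9.30 FPKM without running and 16.3, 33.7 and 82.6 with running. Eif2s1, the alpha subunit that is phosphorylated under stress, had 27.3, 16.04 and 55.6 without running and 55.1, 0.0107 and 21.3 with running. Eif2s3x, the X-linked gamma subunit, had 0.336, 0 and 32.1 without running and 0.0109, 0 and 27.2 with running. Each group held high and low libraries of Eif2s2 and Eif2s3x. The alpha subunit was near 0 only in Run replicate 2 and had 16.04 FPKM or more in every NR library. The log2 differences of the 2 subunits tested were 0.60 ± 1.13 for Eif2s2 and -1.48 ± 1.66 for Eif2s1, which with Eif2d made 1 positive and 2 negative of the 3 tested in the class of 5, median -0.77 and none past the threshold.

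The 4 eIF2 kinase genes, each tied to a different stress, were low. Eif2ak1, which senses heme shortage, had 0, 8.35 and 27.0 FPKM without running and 0.0303, 19.6 and 0 with running. Eif2ak2, which senses double-stranded RNA, had 10.9, 7.57 and 0 without running and 0.0244, 0.0129 and 35.5 with running. For both, the groups overlapped. Eif2ak3, the kinase of the stressed endoplasmic reticulum, was listed at 0 in 5 libraries and had 5.41 FPKM in Run replicate 1. Eif2ak4, which senses amino acid shortage, was listed at 0 in 4 libraries and had 6.25 FPKM in NR replicate 1 and 0.371 in Run replicate 2. Summed over the 4 kinases the level was 17.1, 15.9 and 27.0 without running and 5.46, 19.9 and 35.5 with running, a range in which the groups overlapped. The 2 tested kinases, Eif2ak1 and Eif2ak2, had negative differences that did not pass the threshold.

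The 5 genes of eIF2B, the exchange factor that reactivates eIF2, were all below FPKM 1 in NR replicate 2. Of the 5, 3, 0 and 2 reached FPKM 1 without running, replicate by replicate, and 2, 3 and 1 did with running. Their summed level was 146, 0.102 and 70.0 FPKM without running and 159, 93.7 and 152 with running, and NR replicate 1 lay within the Run range. NR replicate 2, the library with almost none of them, was also the one with the most symbols at FPKM 1 or above (7355). No library had all 5 genes at FPKM 1, and none of the 3 tested passed the threshold (1 positive, 2 negative).

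All 14 eIF3 genes were tested, and they were the only class of more than 2 tested initiation genes with a positive median. eIF3 is the large scaffold of the scanning complex. Without the copy Eif3j2, its 13 subunit genes reached FPKM 1 in 9, 13 and 9 cases without running and in 13, 10 and 12 with running, and their median level was 21.9, 54.9 and 50.3 FPKM without running and 79.1, 20.7 and 66.4 with running. NR replicate 1 and Run replicate 2 were the lowest by median, 1 in each group. With Eif3j2, 8 differences were positive and 6 negative, the median was 0.50 and none passed the threshold, with adjusted p-values of 0.978 to 0.989.

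Of these subunits, Eif3m (chromosome 2, 104999656 to 105017080) was the member whose Run libraries all lay above its NR libraries. It had 0.0530, 39.3 and 86.8 FPKM without running and 151, 92.2 and 176 with running. The gap between NR replicate 3 and Run replicate 2 was small, and NR replicate 1 was near 0. The log2 difference was 3.13 ± 1.64 (SE; limma unadjusted p = 0.0987, adjusted p = 0.978). It was 1.19 without NR replicate 1 and 4.38 without NR replicate 3. Separation of that kind, with Run above, held for 1 of the 46 tested members and for 4.76% of the 6155 genes tested. NR replicate 1, where Eif3m was near 0, was also the library with the lowest sums of granule neuron markers (0.285 FPKM) and pan-neuronal markers (273 FPKM). The same library had the lowest microglial sum (55.0 FPKM) and the fewest symbols at FPKM 1 (5426), while its astrocyte sum was 4491 FPKM. The part of these traits in the result was not tested.

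The other eIF3 genes named for their level overlapped between groups. Eif3k had 184, 100.3 and 140.2 FPKM without running and 271, 48.1 and 146 with running. Eif3i, a subunit with a beta-propeller fold, had 200.3, 146 and 62.4 without running and 126, 116 and 8.99 with running. Eif3g, which binds RNA, had 84.9, 127 and 50.3 without running and 79.1, 38.4 and 243 with running. Run libraries were both highest and lowest for Eif3k and Eif3g, while the lowest value of Eif3i was Run replicate 3 and its highest NR replicate 1. Eif3h had 0.05, 119 and 137 without running and 252, 86.8 and 9.72 with running, with NR replicate 1 near 0 as for Eif3m.

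The helicase of eIF4F is encoded by paralogs of similar level. Eif4a1 (chromosome 11, 69666936 to 69672423) had 140.5, 204 and 241 FPKM without running and 260.0, 43.1 and 191 with running. Eif4a2 (chromosome 16, 23107444 to 23114136), the form known to be high in brain, had 381, 175 and 174 without running and 405, 150.0 and 122 with running. Run replicate 1 was highest for both, and Run replicate 2 was the lowest for Eif4a1 but not for Eif4a2. The share of Eif4a2 in the pair was 73.1%, 46.2% and 41.9% without running and 60.9%, 77.7% and 39.0% with running, with means of 53.7% ± 16.9 and 59.2% ± 19.4 (SD, n = 3 each; 2-sided exact permutation p = 0.8, adjusted p = 1 over the 2 paralog shares, where 0.1 is the smallest p that 3 libraries against 3 can give). That difference of 5.46 percentage points was smaller than the SD of either group and changed sign without NR replicate 3 (-0.44) or without Run replicate 2 (-3.78). Eif4h, which aids the helicase, had 82.96, 50.0 and 229 FPKM without running and 80.2, 124 and 18.6 with running, again with overlap.

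Of the scaffold genes, Eif4g3 (chromosome 4, 137993022 to 138208508) was the member whose Run libraries all lay below its NR libraries. It had 6.59, 18.8 and 3.24 FPKM without running, had 1.11 in Run replicate 1 and was listed at 0 in Run replicates 2 and 3. The separation was thus between low levels. The log2 difference of -2.75 ± 0.86 (SE) had a limma unadjusted p of 0.0153 and an adjusted p of 0.601, so it did not pass the threshold. Eif4g3 met the filter through its NR libraries, where it was high, and with no filter the unadjusted limma p was 0.0525. Without Run replicate 2 or 3 that p was 0.0748 or 0.0775. Separation with Run below held for 1 of 46 tested members and for 4.19% of all genes tested. The paralog Eif4g1, the main eIF4F scaffold, had 0.581, 6.80 and 0.105 FPKM without running and 16.8, 0.0180 and 0 with running, and Eif4g2, which lacks the eIF4E-binding part, had 56.9, 58.3 and 99.0 without running and 43.4, 118 and 22.0 with running. Eif4g2 was the most abundant of the 3 in every library.

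The cap-binding protein and its inhibitors were seen unevenly. Eif4e was listed at 0 in NR replicates 1 and 3, had 52.4 FPKM in NR replicate 2 and had 15.8, 49.9 and 27.9 with running. It was thus seen in all Run libraries and in 1 NR library, whose value was the highest of all. Its log2 difference was 2.95 ± 1.84 (SE; limma unadjusted p = 0.153, adjusted p = 0.978). Eif4e met the filter through its Run libraries, and with no filter the unadjusted limma p was 0.150. The inhibitor gene Eif4ebp1 had 24.1, 30.2 and 3.43 FPKM without running and 29.6, 0 and 23.8 with running. Eif4ebp2, the 4E-BP known as the main form in brain, was listed at 0 in all 3 NR libraries and in Run replicate 3, and had 16.5 and 1.95 FPKM in Run replicates 1 and 2, and Eif4ebp3 was listed at 0 in all 6. Of the 8 genes of this class only Eif4e and Eif4ebp1 were tested, and neither passed.

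The eIF5A gene was the second most abundant initiation gene by name, although its product, which carries the modified residue hypusine, is now known mostly for its role in elongation and termination. Eif5a (chromosome 11, 69916714 to 69921958) had 622, 502 and 333 FPKM without running and 352, 207 and 551 with running. The means of 486 ± 145 and 370.1 ± 173 (SD, n = 3 each) overlapped, for a log2 difference of -0.46 ± 0.47 (SE). Its paralog Eif5a2 had 40.6 FPKM in Run replicate 3, 0.00775 in NR replicate 1 and was listed at 0 in the other 4 libraries.

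Chosen copies and pseudogenes were set against their parents, among them some but not all of the 13 symbols marked -ps. Those examined were below their parents in every library where the parent reached FPKM 1. Eif4a-ps4 had 5.46% to 9.51% of the FPKM of Eif4a1 in every library, so part of the level of Eif4a1 is uncertain. Eif3j2 on chromosome 18, which shares 99.7% of 783 coding bases with Eif3j1, had 13.96% to 54.5% of its level, so the split within that pair is uncertain in every library. The other copies were lower, at 0.424% to 0.547% for Eef1a1-ps1, 0.794% to 1.14% for Eif5al3-ps, 0.201% to 0.376% for Eef2-ps2 and 0.140% to 0.379% for the 2 copies of Eif1. Those of Eif3e, a further eIF3 subunit gene, kept no such narrow share, with 0.306% to 2.85% for Eif3s6-ps1 and 0.254% to 9.50% for Eif3s6-ps2, each highest in NR replicate 3, where Eif3e had 1.90 FPKM, and each listed at 0 in Run replicate 2. Eif4a3l1 and Eif4a3l2 had 0.129% to 0.652% of the level of Eif4a3, an exon junction helicase, in the 4 libraries where Eif4a3 was above FPKM 1 and were listed at 0 in the 2 libraries, NR replicate 3 and Run replicate 2, where it was listed at 0. Paralogs varied more widely, since Eif4a2 ranged from 64.0% to 348% of Eif4a1 and Eif1b from 0% to 38.3% of Eif1.

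**Figure D3:**
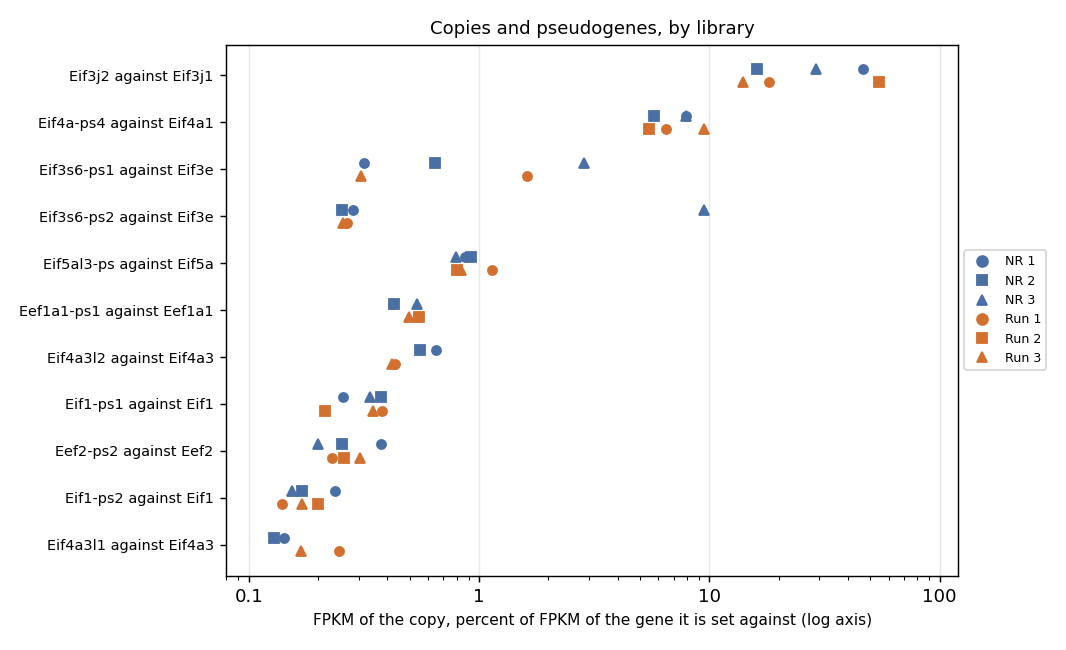
FPKM of 11 copies and pseudogenes as a percent of the FPKM of the gene each is set against (log axis), with 1 point for each library in which that gene reached FPKM 1. Eif4a-ps4 stays between 5.46% and 9.51% of Eif4a1 in all 6 libraries, and Eif3j2 between 13.96% and 54.5% of Eif3j1.

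Set side by side, initiation genes summed to more than elongation genes in every library. The 57 Eif genes summed to 3815, 3107 and 3299 FPKM without running and 3857, 2133 and 3566 with running, and the 14 Eef genes to 1912, 1587 and 1369 without running and 2208, 1388 and 1951 with running. Both sums overlapped between the groups, and Run replicate 2 had the lowest initiation sum. Eef1a1 alone made up 58.3% to 75.4% of the elongation sum, and Eif1 and Eif5a together made up 23.4% to 43.1% of the initiation sum.

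The ratio of the elongation to the initiation sum was 0.501, 0.511 and 0.415 without running and 0.572, 0.651 and 0.547 with running. The Run libraries all lay above the NR libraries, with means of 0.476 ± 0.0527 and 0.590 ± 0.0542 (SD, n = 3 each). This is a description of sums that a few genes fill, and no test was made of it. Without Eef1a1 the ratio was 0.209, 0.201 and 0.103 without running and 0.155, 0.160 and 0.158 with running, so the groups overlapped and the difference of the means turned to -0.01. The ratio of Eef1a1 to Eif1 alone was 1.09, 1.55 and 0.967 without running and 2.92, 2.27 and 1.81 with running, also without overlap; this pair was chosen after its values were seen. With Eif5a and Eif5a2 counted as elongation genes, the difference of the mean ratios was 0.0815 and the groups overlapped.

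**Figure D4:**
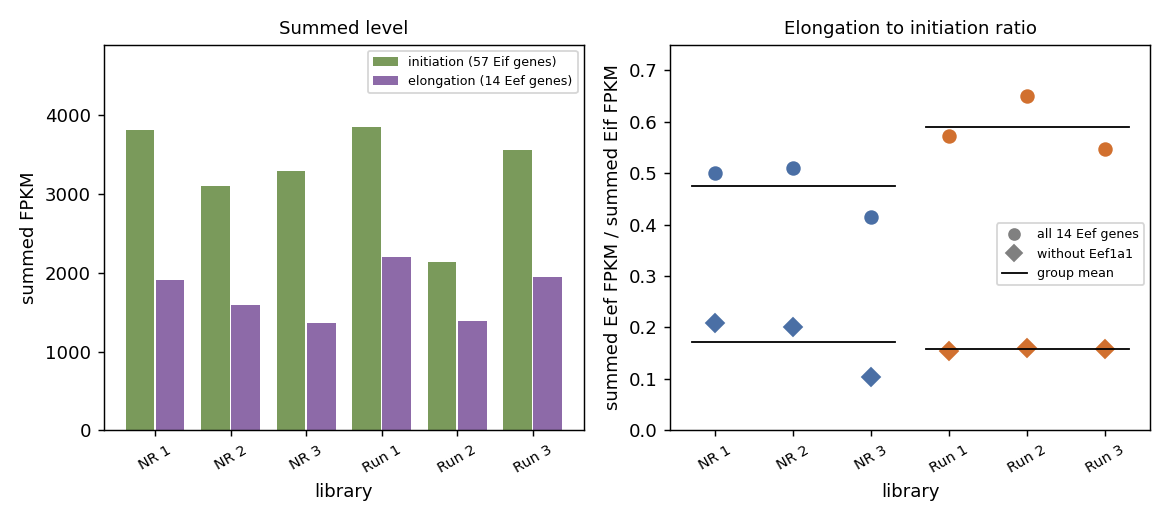
Left, summed FPKM of the 57 Eif and the 14 Eef genes in each library. Right, the ratio of the sums per library (blue NR, orange Run, lines at the group means), with and without Eef1a1. The Run points lie above the NR points with Eef1a1 (0.547 to 0.651 against 0.415 to 0.511) and within the NR range without it.

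Across the test of all genes, no factor gene passed the threshold between Run and NR. By limma with Benjamini-Hochberg adjustment over 6155 genes at a threshold of 0.05, 0 of 46 members and 0% of all genes passed, and the members' adjusted p-values ran from 0.601 to 0.999. At an unadjusted p under 0.05 there was 1 member of 46, Eif4g3, and 304 genes in all (4.94%), so the members' share was not above that of all genes. Of the tested initiation genes 13 had positive and 26 negative differences, with a median of -0.48 and a range of -2.75 to 4.03. Of the elongation genes 3 were positive and 4 negative, with a median of -0.24 and a range of -3.65 to 1.02. All tested genes had 3007 positive and 3148 negative differences and a median of -0.03.

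The medians of the classes moved with single libraries. Without Run replicate 2 the initiation median was 0.22 and the elongation median 0.53, against 0.05 for all tested genes, and without NR replicate 3 the elongation median was -0.84. The residual SD of a tested gene, on the log2 scale, had a median of 2.28 over the members and 1.98 over all tested genes. It was 0.24 for Eef1a1, 0.40 for Eif1 and 0.59 for Eif5a, the 3 members of highest mean, and 0.39 for Eef2, but 0.80 to 1.01 for Eif4a2, Eif4a1 and Eif3k, which exceeded Eef2 in mean level.

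**Figure D5:**
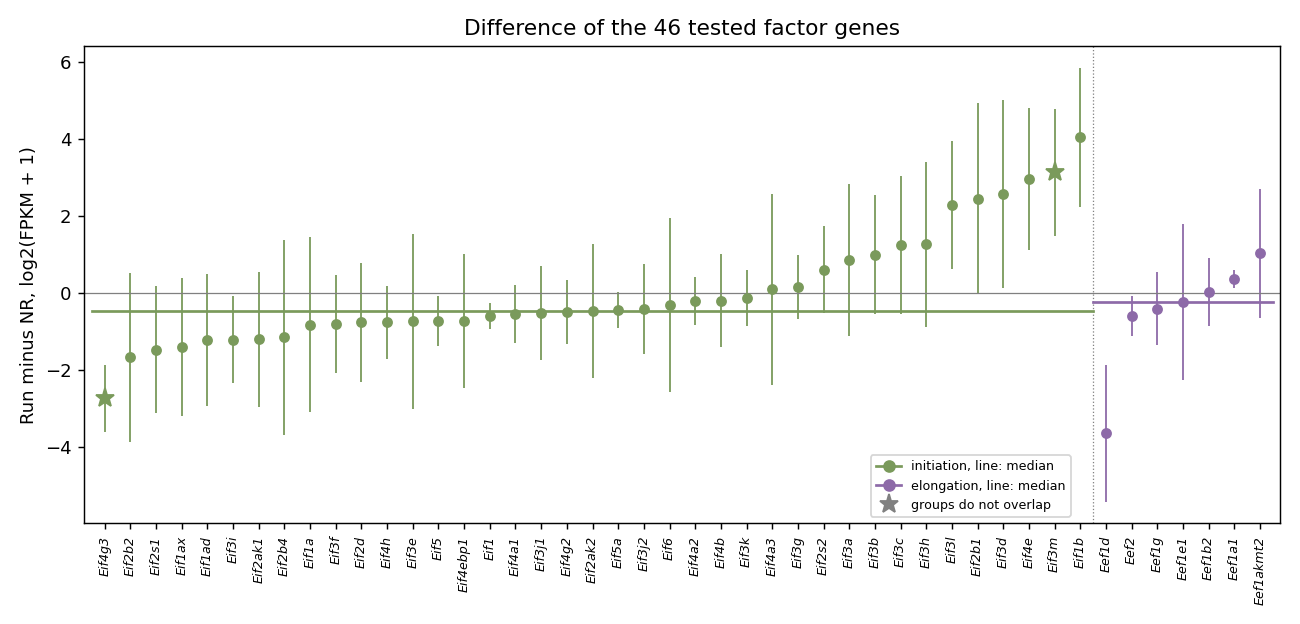
Difference Run minus NR of the 46 tested factor genes on the log2(FPKM + 1) scale, with the standard error from limma as bars, ordered within the initiation (green) and elongation (purple) genes. Stars mark Eif4g3 and Eif3m, whose groups do not overlap, and the horizontal lines mark the class medians of -0.48 and -0.24.

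Other genes of the pathway, listed by their known roles in termination, mRNA binding, factor modification, stress signalling and mitochondrial translation, were seen in part. Of 52 such genes 6 (11.5%) reached FPKM 1 in all 6 libraries, against 26.8% of the members and 3.16% of all symbols. Their level was also lower, with a median of the mean FPKM of 9.90 against 21.3 for the members. Of the 52 genes 26 were tested, with 15 positive and 11 negative differences and a median of 0.50. Among those tested 0 passed, either after adjustment or at an unadjusted limma p under 0.05. The 3 with the highest means were Tpt1, Ppp1r15a and Paip2. Tpt1, a partner of eEF1A also called translationally controlled tumor protein, had 257, 477 and 376 FPKM without running and 318.5, 44.2 and 258 with running, and was low in Run replicate 2 only. Ppp1r15a, whose product directs a phosphatase to eIF2, had 210.3, 0.0475 and 311 without running and 79.0, 63.2 and 175 with running. Paip2, an inhibitor of poly(A)-binding protein, was listed at 0 in NR replicate 1 and had 225 and 96.6 in NR replicates 2 and 3 and 206, 125 and 108 with running. High and low libraries of both genes occurred without running.

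The 3 pathway genes with the smallest limma p were Mtif3, Tpt1 and Gspt1. Mtif3, a mitochondrial initiation factor, had 0, 0.0113 and 5.42 FPKM without running and 4.53, 5.62 and 8.70 with running, with a log2 difference of 1.93 ± 1.01 (SE; limma unadjusted p = 0.0974). Gspt1, the release factor eRF3, was listed at 0 in NR replicate 1, had 12.4 and 0.0131 in NR replicates 2 and 3 and 25.7, 1.25 and 11.9 with running. Mtif3 and Gspt1 met the filter through their Run libraries, and with no filter the unadjusted limma p of Mtif3 was 0.159. For both genes the groups overlapped, and for all 26 tested genes the limma adjusted p was 0.978 to 0.988.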

How the data were processed

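The authors' deposited table gives FPKM for 55367 symbols in 6 libraries. Per the submitters' processing notes, Trimmomatic 0.39, STAR 2.7.5c, StringTie 2.1.7 and the build mm10 were used, and the annotation behind them is not given in the sources used. Smart-seq2 does not mark strand, so overlapping antisense genes share reads.

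Deposited FPKM values were tested without further scaling as log2(FPKM + 1), for the 6155 genes that reached FPKM 1 in 3 libraries or more, with limma 3.58.1 in R 4.3.3 (mean-variance trend, 2-sided, Benjamini-Hochberg adjustment over all tested genes, threshold 0.05). The fit was tried on simulated normal values whose means were set above the levels of these data. That trial therefore does not show what the fit can find for genes near 0. Sums, ratios and shares used all members. Python 3.11.15 and Biopython 1.88 served for tables and sequences. GENCODE M21 (GRCm38) gave positions for 68 of 71 members. At least 99.99% of values above 0 differed between any 2 libraries.

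The members, lists and tests were chosen with earlier results of these data known. Named with their values are the 5 Eef and 10 Eif genes of highest mean, the 6 members of smallest p, members whose groups do not overlap, and listed paralogs, eIF2 subunits and kinases. Of the pathway list, the 3 of smallest p and the 3 of highest mean are named. Alternatives covered the pseudocount, the filter, 2 scalings, the trend, the replicate number as a block and each library left out.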

Additional observations from a re-analysis of the deposited data

How the results depend on the processing

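With each alternative tried, 0 genes passed the threshold, the fit with a replicate block included (0 called, 251 at an unadjusted limma p under 0.05). Same-numbered libraries of the 2 groups deviated together hardly at all (correlations of 0.0042 to 0.021 across genes), although each library correlated best with its own number. The labels state no pairing. With a median residual SD of 1.98 over all tested genes, correlations this small cannot show whether the numbers pair the libraries. Across alternatives, unadjusted limma p-values under 0.05 numbered 82 (filter of FPKM 1 in all libraries, 1751 genes) to 404 (no filter) over all genes, and 0 to 3 over the factor genes.

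Leaving out each library in turn moved the initiation median between -0.46 and 0.22 (the latter without Run replicate 2), the elongation median between -0.84 and 0.53 (0.02 with the stricter filter), the log2 difference of Eif4a1 between -1.06 and 0.22, that of Eif4a2 between -0.74 and 0.16 (0.12 without Run replicate 3), and the difference in Eif4a2 share between -3.78 (without Run replicate 2) and 15.5 percentage points, with -0.44 without NR replicate 3. The elongation to initiation ratio difference was 0.287 with genes at FPKM 1 in all libraries only and -0.013 without Eef1a1, an alternative chosen after seeing the data. The ratio difference stayed between 0.0841 and 0.136 with each library left out. The causes were not tested. Alternatives were run for 16 genes whose differences are given, with adjusted p-values of 0.363 or more. Of these, 10 kept their direction in each alternative in which they were tested, but their sizes moved. The stricter filter, FPKM 1 in all libraries, left some of the 10 untested. The 6 members of smallest p and Mtif3 were named for their p in these same data. That they kept their direction therefore adds no support. With each library left out, Eef1a1 ranged from 0.22 to 0.53, Eef2 from -0.84 to -0.47, Eif1 from -0.85 to -0.43, Eif5a from -0.80 to -0.09, Eif1b from 2.77 to 6.01, Eef1d from -5.57 to -2.66, Eif3m from 1.19 to 4.38, Eif4e from 1.99 to 4.86, Eif4g3 from -3.26 to -2.15 and Mtif3 from 1.48 to 2.82. The sign changed for Eef1b2 (-0.52 to 0.81, with -0.35 without NR replicate 3, -0.25 without Run replicate 3 and -0.0559 with quantile normalization), Eef1g (-1.15 to 0.037), Eif2s1 (-2.66 to 0.23) and Eif2s2 (-0.021 to 1.43). The pseudocount, 0.1 or 10, gave Eif4g3 -5.03 or -0.84. Depth is unknown for these FPKM, so values near 0 carry no error of their own.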
